A study of Brassica rapa with 30 samples.

Results

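BrGI, the GIGANTEA gene of Brassica rapa, was followed across a vernalization course in an early-flowering and a late-flowering cultivar. It is the gene Bra024536, chosen by its ID, and is 1 of the 42186 gene rows in the count tables. Those tables pair no ID with a name, so that Bra024536 is the GIGANTEA gene is background knowledge here. Transcripts were counted in whole plants of LP08, labelled early flowering, and of Chiifu, labelled late flowering. Both cultivars were grown in a greenhouse for 3 weeks before they were divided over 5 treatments. Plants of NV had no cold, those of V1, V20 and V40 had been in the cold for 1, 20 and 40 days, and those of V40T10 had spent 10 days in warmth following 40 days in the cold. Each of the 10 groups held 3 libraries, 30 in all.

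GIGANTEA is a large plant-specific protein that links the circadian clock to flowering time. In Arabidopsis its transcript cycles each day under clock control, and the protein works with the blue-light receptor FKF1 to remove CDF repressors, which allows CONSTANS and then the florigen gene FT to be transcribed in long days. It also stabilises the clock protein ZEITLUPE, and Arabidopsis mutants that lack it have an altered tolerance of freezing. The hour at which the plants were harvested is not given in the sources used here.

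Each library held 16926920 to 26595834 counts on genes, of which BrGI received 219 to 7482. Levels are given in CPM, the counts divided by the TMM-scaled library total and brought to a common total. The 3 Chiifu NV libraries stood apart from each other. In Chiifu NV replicate 3, 13.4% of the genes tested lay more than 1 log2 unit from their group mean, and in replicates 1 and 2 these shares were 6.69% and 5.98%. In the other 27 libraries the share was 0.226 to 2.81%. BrGI was part of this spread, with 219 counts in Chiifu NV replicate 3 against 1678 and 1091 in replicates 1 and 2. The exact 95% Poisson interval of the 219 counts was 191 to 250, which covers counting error only. Results that use Chiifu NV are therefore given with and without single libraries of it.

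BrGI was high in plants taken from the cold and low in plants kept in, or returned to, warmth, in both cultivars. In LP08 the 9 libraries of V1, V20 and V40 held 175 to 310 CPM, with a median of 238, and the 6 libraries of NV and V40T10 held 57.8 to 96.3 CPM, with a median of 73.4. In Chiifu the 9 cold libraries held 188 to 298 CPM, with a median of 231, and the 6 warm ones 13.97 to 80.3 CPM, with a median of 45.0. No cold library overlapped with a warm one of the same cultivar. Among all 28712 genes tested, 7.24% had every cold library above every warm one in LP08, 7.65% in Chiifu and 3.58% in both, so that BrGI shared this order with 1028 other genes. In whole-plant RNA a change in the number of cells that express the gene and a change in transcript per cell cannot be told apart.

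**Figure D1:**
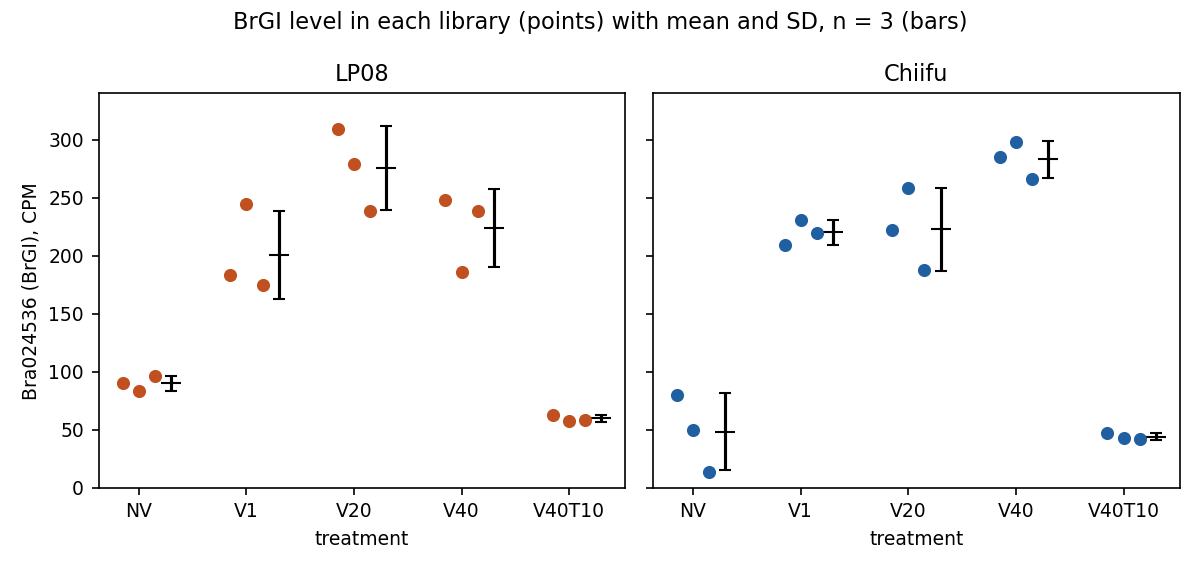
BrGI level in CPM (vertical axis) in each of the 30 libraries by treatment, LP08 on the left and Chiifu on the right. Points are single libraries and black bars the mean with the SD of 3 libraries. Cold libraries lie at 175 CPM or more and warm ones at 96.3 CPM or less, and the Chiifu NV points spread between 13.97 and 80.3 CPM.

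In LP08 the NV libraries held 90.1, 83.8 and 96.3 CPM, and the V1 libraries 184, 244 and 175 CPM. The V20 libraries held 310, 280 and 238 CPM, the V40 libraries 248, 186 and 238 CPM, and the V40T10 libraries 63.0, 57.8 and 58.6 CPM. The V1 libraries were all above the NV libraries, those of V20 and V40 overlapped, and those of V40T10 were all below NV. Group means were 90.0 ± 6.27, 201 ± 37.9, 276 ± 35.8, 224 ± 33.6 and 59.8 ± 2.81 CPM over the course (SD, n = 3 each), so the highest mean of LP08 was at V20.

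In Chiifu the NV libraries held 80.3, 50.2 and 13.97 CPM, and the V1 libraries 210, 231 and 220 CPM. The V20 libraries held 222, 259 and 188 CPM, the V40 libraries 285, 298 and 266 CPM, and the V40T10 libraries 47.3, 42.7 and 42.4 CPM. The V1 and V20 libraries overlapped, every V40 library was above every V20 library, and the V40T10 libraries lay within the range of NV. Group means were 48.2 ± 33.2, 220 ± 10.8, 223 ± 35.6, 283 ± 15.9 and 44.1 ± 2.76 CPM over the course (SD, n = 3 each), so the highest mean of Chiifu was at V40. Without replicate 3 the Chiifu NV mean was 65.3 ± 21.3 CPM (n = 2).

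Ordered from low to high, the 10 group means ran from Chiifu V40T10 through Chiifu NV, LP08 V40T10, LP08 NV, LP08 V1, Chiifu V1, Chiifu V20, LP08 V40 and LP08 V20 to Chiifu V40. Of the 9 pairs of neighbours in this order, 7 had libraries that overlapped. The libraries of LP08 NV lay wholly above those of LP08 V40T10, with means 30.3 CPM apart, and those of LP08 V1 wholly above those of LP08 NV, with means 111 CPM apart. With RLE factors the order was the same. With total counts Chiifu NV was lowest, at 46.5 CPM, followed by LP08 V40T10 at 50.01 CPM and Chiifu V40T10 at 52.9 CPM, and LP08 V20, at 309 CPM, stood above Chiifu V40, at 283 CPM. Chiifu V20 then also stood above LP08 V40. Without replicate 3 the mean of Chiifu NV, at 65.3 CPM, was above that of LP08 V40T10. Treatment held 82.5% of the sum of squares of log2 CPM, cultivar 1.7%, their interaction 5.8% and the spread within groups 10.0%. Of the spread within groups, 87.4% came from the 3 Chiifu NV libraries. The SD of BrGI in Chiifu NV, 1.30 on the log2 scale, was larger than that of 93.3% of the genes tested there, and in the other 9 groups BrGI had an SD of 0.067 to 0.26.

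The first comparisons asked what each length of cold, and cold followed by warmth, did to BrGI relative to plants never in the cold. BrGI rose after 1, 20 and 40 days of cold in both cultivars, 2.23- to 3.06-fold in LP08 and 4.56- to 5.87-fold in Chiifu, and was not called at V40T10 in either. The labels do not say whether they came from separate plants, so the p-values measure the spread between libraries, which may be technical. No untreated plants of the age of the later groups were among the samples, so treatment and the time that passed cannot be told apart. As the hour of harvest is not given, a difference in hour between groups cannot be told apart from treatment either.

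In LP08, BrGI was 2.23-fold higher at V1 than at NV, a log2 change of 1.16 (SE 0.31, edgeR adjusted p 0.00364). Across all genes tested, 20.8% were called higher in that comparison, and 10.8% showed a rise at least as large as that of BrGI. At V20 it was 3.06-fold higher than at NV (log2 change 1.61, SE 0.31, edgeR adjusted p 0.000176), where 20.1% of all genes were called higher. At V40 it was 2.49-fold higher (log2 change 1.32, SE 0.31, edgeR adjusted p 0.00161), where 17.4% were called higher. Rises of that size or more were shown by 6.22% of genes at V20 and 7.21% at V40. The increases of BrGI in LP08 thus stood in the upper part of the distribution of changes, in comparisons where many genes were called.

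In Chiifu, BrGI was 4.56-fold higher at V1 than at NV, a log2 change of 2.19 (SE 0.32, edgeR adjusted p 3.38e-06), and 22.3% of all genes were called higher. At V20 it was 4.62-fold higher (log2 change 2.21, SE 0.32, edgeR adjusted p 4.72e-06), with 20.5% of genes called higher. At V40 it was 5.87-fold higher (log2 change 2.55, SE 0.32, edgeR adjusted p 6.75e-07), with 21.3% called higher. Rises at least as large were shown by 3.06%, 2.65% and 2.13% of genes at these times. The size of these changes depended on the Chiifu NV libraries. Without Chiifu NV replicate 3 the log2 changes at V1, V20 and V40 were 1.77, 1.78 and 2.11, and without replicate 1 they were 2.77, 2.79 and 3.14. All stayed called, with edgeR adjusted p-values between 3.71e-09 and 4.38e-05 when any library of the compared groups was left out. Where only the 2 groups compared set the spread, the edgeR adjusted p-values were 0.0288, 0.038 and 0.0238.

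After 10 days of warmth BrGI was no longer called above NV in either cultivar. In LP08 it stood at 59.8 CPM at V40T10 and 90.0 CPM at NV, a log2 change of -0.59 (95% interval -1.22 to 0.04, edgeR adjusted p 0.123), which was not called, although the libraries did not overlap. With the spread of these groups alone the same change had an edgeR adjusted p of 0.00226, and with one weight per group in limma voom 0.00664. Called genes made up 42.8% of all genes in this comparison, and 45.0% and 48.7% with those settings. In Chiifu BrGI stood at 44.1 CPM at V40T10 and 48.2 CPM at NV, a log2 change of -0.13 (95% interval -0.76 to 0.50, edgeR adjusted p 0.767), where 41.1% of genes were called. That value rested on single libraries. It was -0.58 without Chiifu NV replicate 3 (edgeR adjusted p 0.00923), which was called, with 37.8% of all genes called in that fit. Without replicate 1 it was 0.45 (edgeR adjusted p 0.196), which was not called. With total counts in place of TMM scaling it was 0.18, where the median of all genes was at 0.37. BrGI lay 0.15 below the median of all genes in log2 units with TMM scaling and 0.19 below it with total counts. Scaling moves that median along with BrGI, so both values are close by construction.

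**Figure D2:**
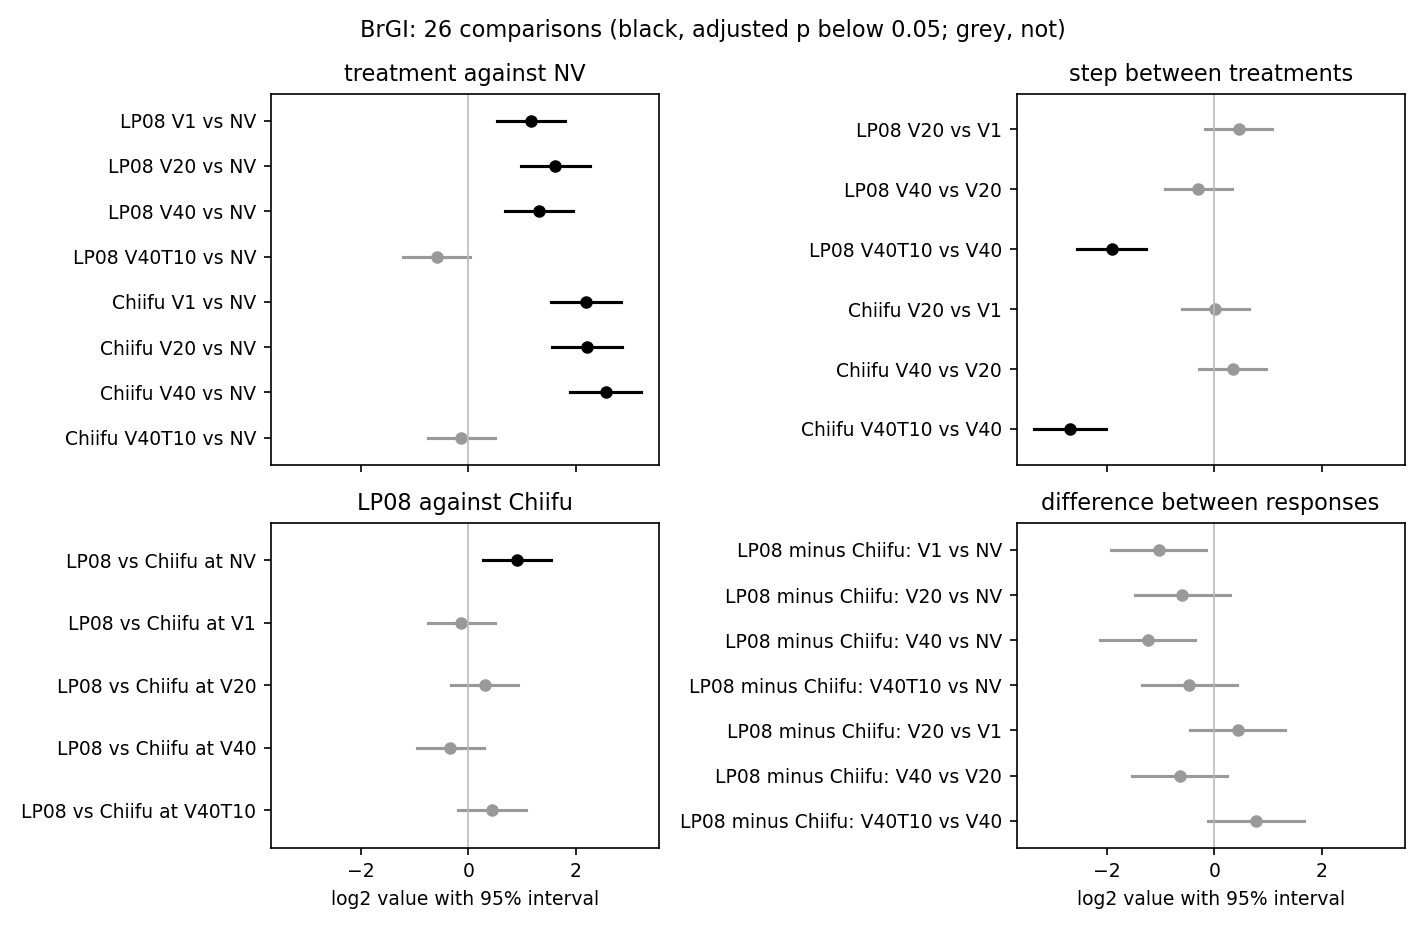
Log2 fold changes of BrGI in 3 sets of comparisons and, in the lower right panel, differences between the log2 changes of LP08 and Chiifu (horizontal axis), with 95% intervals from the edgeR fit. Black marks an adjusted p below 0.05 and grey one above it. The 6 cold comparisons with NV and LP08 against Chiifu at NV lie to the right of 0, both V40T10 against V40 comparisons lie to the left, and the remaining 17 are grey.

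The first step of the course, V1 against NV, was called in both cultivars, as given above. The later steps between treatments asked when BrGI moved after the first day of cold. Of these 6 steps, only the return to warmth was called, in both cultivars. In LP08 BrGI fell to 59.8 CPM at V40T10, against 224 CPM at V40, 3.75-fold lower (log2 change -1.91, SE 0.31, edgeR adjusted p 1.91e-05). There 25.1% of all genes were called lower, and 7.43% showed a fall of that size or more. In Chiifu it fell to 44.1 CPM at V40T10, against 283 CPM at V40, 6.42-fold lower (log2 change -2.68, SE 0.32, edgeR adjusted p 2.94e-07). In that comparison 22.4% of genes were called lower, and 1.33% fell as far. No Chiifu NV library enters these changes directly, and they kept their call in each of the 6 fits without a library of the compared groups, at -2.03 to -1.83 in LP08 and -2.75 to -2.65 in Chiifu.

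Within the cold, none of the 4 steps passed the threshold of the edgeR test, and 0 had an unadjusted p under 0.05. The spread in this test is shared by all 10 groups, the variable Chiifu NV included. At V20 against V1 the log2 change was 0.46 in LP08 (95% interval -0.17 to 1.08, edgeR adjusted p 0.264) and 0.02 in Chiifu (95% interval -0.61 to 0.64, edgeR adjusted p 0.991). The share of all genes called at this step was 34.3% in LP08 and 33.2% in Chiifu. Where only these 2 groups set the spread, the LP08 step had an edgeR adjusted p of 0.0466, and limma voom with one weight per group gave 0.0298. These settings called 38.2% and 42.5% of all genes at the LP08 step. At V40 against V20 the log2 change was -0.30 in LP08 (95% interval -0.92 to 0.32, edgeR adjusted p 0.796) and 0.34 in Chiifu (95% interval -0.28 to 0.97, edgeR adjusted p 0.793). Called genes were 2.05% of all in LP08 and 0.261% in Chiifu at this step, so few genes passed it. In Chiifu the V40 libraries of BrGI, at 266 to 298 CPM, did not overlap with those of V20, at 188 to 259 CPM.

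**Figure D3:**
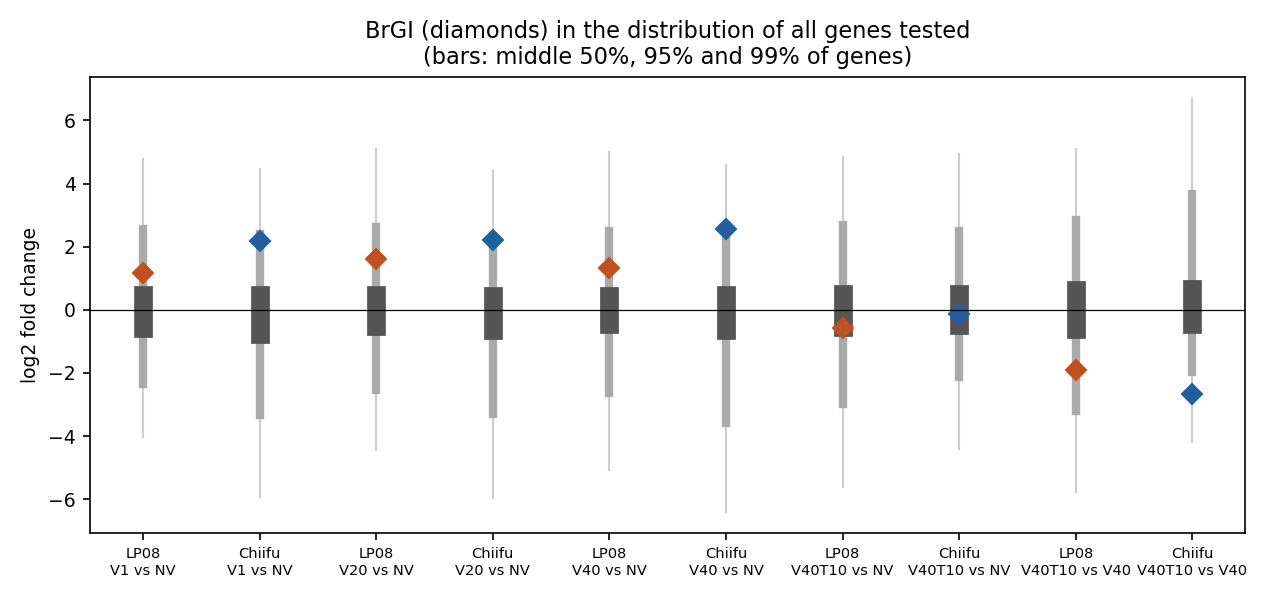
Log2 fold change of BrGI (diamonds, LP08 orange and Chiifu blue) beside the distribution over the 28712 genes tested (vertical bars for the middle 50%, 95% and 99% of genes) in 10 comparisons along the horizontal axis. Over the cold comparisons BrGI lies above the middle 50% of genes, and in Chiifu at V40 against NV, at 2.55, above the middle 95%. In Chiifu at V40T10 against V40, at -2.68, it lies below the middle 95%.

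Levels were also compared between the cultivars at each treatment. Of the 5 comparisons, BrGI was called only without cold, at 90.0 ± 6.27 CPM in LP08 libraries, against 48.2 ± 33.2 CPM in those of Chiifu (SD, 3 libraries each). The difference was 1.87-fold, or 0.90 in log2 units (SE 0.31, edgeR adjusted p 0.0194), with 20.8% of all genes called higher in LP08. It was 0.46 without Chiifu NV replicate 3 (edgeR adjusted p 0.0371) and 1.48 without replicate 1 (edgeR adjusted p 0.000193). These fits called 43.8% and 48.9% of all genes in either direction, against 45.0% with all libraries. Without LP08 NV replicate 3 the difference was 0.80 with an edgeR adjusted p of 0.067. With total counts in place of TMM scaling it was 0.78 with 0.0528, and with the spread of these groups alone 0.90 with 0.284. Called genes made up 38.8%, 42.7% and 18.9% of all in these fits, in that order. All 3 LP08 libraries, at 83.8 to 96.3 CPM, lay above the highest Chiifu library, at 80.3 CPM.

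In the cold the cultivars differed in BrGI by less than the test could call. The test shares its spread over all 10 groups, and Chiifu NV held 87.4% of the within-group sum of squares of BrGI. None of the 8 alternative settings called a cultivar difference in the cold. At V1 the log2 difference, LP08 over Chiifu, was -0.13 (95% interval -0.76 to 0.49), at V20 it was 0.31 (-0.32 to 0.93) and at V40 it was -0.34 (-0.96 to 0.29). The edgeR adjusted p-values were 0.757, 0.443 and 0.394, and 43.1%, 41.8% and 42.3% of all genes were called. At V40 the libraries of LP08, at 186 to 248 CPM, lay below those of Chiifu, at 266 to 298 CPM, without overlap. At V40T10 the log2 difference was 0.44 (95% interval -0.19 to 1.07, edgeR adjusted p 0.226), with 58.7% of all genes called. The LP08 libraries, at 57.8 to 63.0 CPM, did not overlap with the Chiifu libraries, at 42.4 to 47.3 CPM. With the spread of these groups alone the edgeR adjusted p was 0.00247, and 64.8% of all genes were called. With total counts in place of TMM scaling this difference was -0.08, where the median of all genes was at -0.58. Relative to the median of all genes, BrGI was 0.50 higher in log2 units with either scaling, as the median moves with the scaling.

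Whether the cultivars responded differently was tested as the difference between their log2 changes, LP08 minus Chiifu. With all libraries, 0 of the 7 differences passed the threshold of the edgeR test, and 2 of them had an unadjusted p under 0.05. DESeq2 called 1 of the 7 and limma voom with one weight per group 2. At V1 against NV the difference was -1.03 (SE 0.43, 95% interval -1.92 to -0.15, edgeR adjusted p 0.137), and 9.22% of all genes were called. At V40 against NV it was -1.24 (SE 0.43, 95% interval -2.12 to -0.35, edgeR adjusted p 0.0603), with 12.3% called. At V20 and V40T10 against NV the differences were -0.59 (95% interval -1.48 to 0.29) and -0.46 (-1.35 to 0.43), with edgeR adjusted p-values of 0.423 and 0.468 and with 10.3% and 27.2% of genes called. The smaller fold rise of LP08 at V1 and V40 was therefore not called as a difference in response.

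The call at V40 against NV depended on the setting. It passed with DESeq2 (log2 difference -1.23, adjusted p 0.0348), with limma voom and one weight per group (-1.56, adjusted p 0.026), with the replicate number as a block (-1.31, edgeR adjusted p 0.0457) and with edgeR when p-values were adjusted over all genes and comparisons together (adjusted p 0.0292). These settings called 15.6%, 2.58%, 11.6% and 17.5% of all genes, in that order, against 12.3% in the edgeR test above. With the spread of the 4 groups alone the difference did not pass (edgeR adjusted p 0.286), and 3.78% of all genes were called. Each of these differences against NV also moved with the Chiifu NV libraries. Without replicate 1 the differences at V1, V20, V40 and V40T10 were -1.62, -1.18, -1.82 and -1.04, with edgeR adjusted p-values of 0.00437, 0.0308, 0.00154 and 0.0358. More genes were called in that fit as well, 17.7%, 18.0%, 20.2% and 32.2% of all genes tested in it. Without replicate 3 they were -0.63, -0.16, -0.79 and 0.03, with edgeR adjusted p-values of 0.085, 0.713, 0.0231 and 0.97. V40 was thus called there, with 14.4% of all genes, and the sign at V40T10 changed. Without replicate 2 none of these differences was called.

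**Figure D4:**
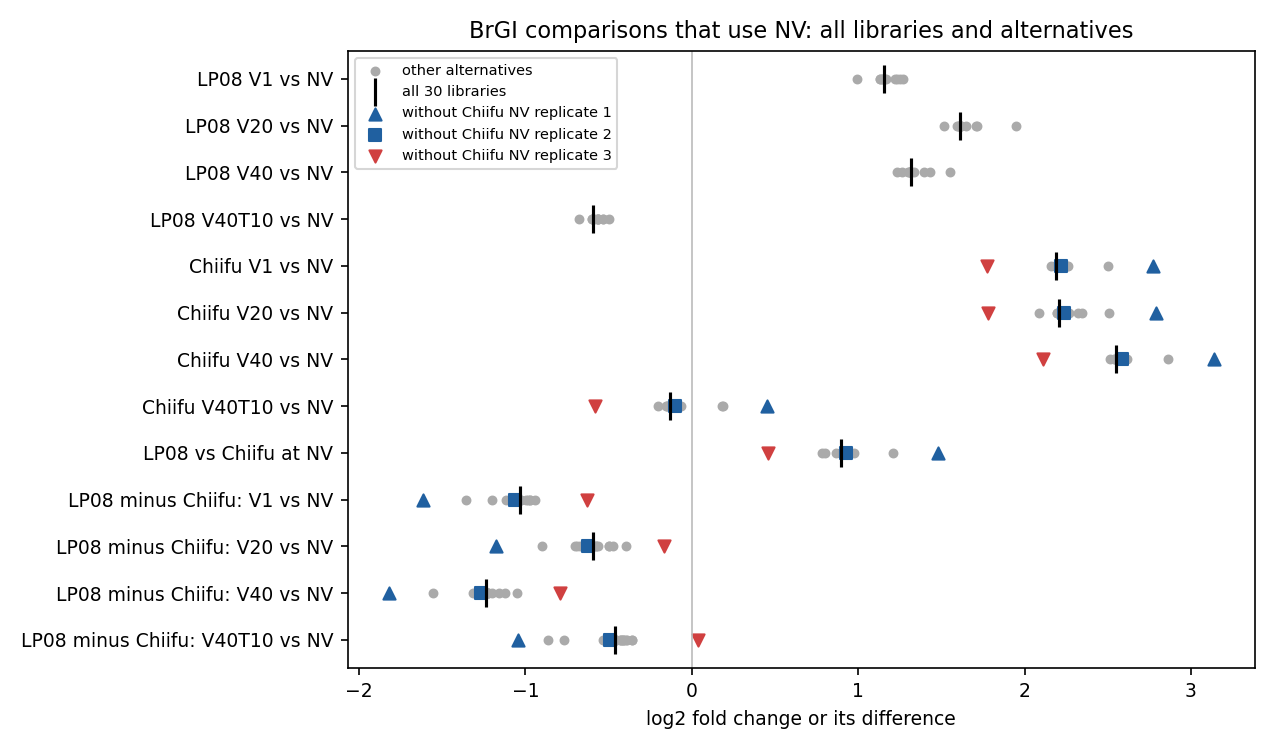
Log2 fold changes of BrGI and differences between them (horizontal axis) in the 13 comparisons that use NV libraries, with all 30 libraries (black bars), without each Chiifu NV library (coloured symbols) and under the other alternatives (grey points). LP08 comparisons stay close together, and those with Chiifu NV shift one way without replicate 1 and the other way without replicate 3, from 2.77 to 1.77 at V1 in Chiifu.

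The remaining 3 differences use no NV library. For V40T10 against V40 the log2 difference was 0.78 (SE 0.43, 95% interval -0.11 to 1.66, edgeR adjusted p 0.189), a fall of 3.75-fold in LP08 and of 6.42-fold in Chiifu, with 30.4% of all genes called. It passed with the spread of the 4 groups alone (edgeR adjusted p 0.00207) and with limma voom and one weight per group (0.79, adjusted p 0.00784). These settings called 38.0% and 40.1% of all genes. With total counts in place of TMM scaling it was 0.19, where the median of all genes was at -0.61. BrGI lay 0.79 above that median in log2 units, against 0.80 with TMM scaling, as the median moves with the scaling. For V20 against V1 the difference was 0.44 (95% interval -0.44 to 1.32, edgeR adjusted p 0.687), with 4.82% of genes called. For V40 against V20 it was -0.64 (95% interval -1.53 to 0.24, edgeR adjusted p 0.851), with 0.143% called.

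The course as a whole was tested with the 4 differences against NV together. The F statistic of BrGI was 2.56 (edgeR adjusted p 0.118), and 43% of all genes were called in this test. It was called without Chiifu NV replicate 1 (F 6.75, edgeR adjusted p 0.00317), without Chiifu NV replicate 3 (F 5.84, edgeR adjusted p 0.00601) and with limma voom and one weight per group (F 5.04, adjusted p 0.0247). Called genes made up 50.3%, 51.6% and 20.5% of all genes tested in these fits, in that order. That voom fit gave Chiifu NV a weight of 0.156, and the other 9 groups 0.929 to 1.82. Leaving out any other single library, in 28 fits, did not call the joint test.

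Genes with the course most like that of BrGI were sought by Pearson's r of log2 CPM over the 30 libraries, among 19907 others with at least 10 counts in every library. This is a description, as the libraries share groups and cultivars. Of these genes, 78 (0.392%) had an r of at least 0.9, and 12 had an r of -0.9 or below. The highest were Bra014320 and Bra036577, each with an r of 0.965, and the lowest Bra040139 and Bra001637, with -0.968 and -0.955. The tables used here give none of them a name. Over the 27 libraries outside Chiifu NV their r was 0.959, 0.984, -0.96 and -0.944.

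Bra036577 held 182 to 285 CPM in the cold libraries of LP08 and 17.3 to 32.5 CPM in the warm ones, and in Chiifu 168 to 257 CPM in the cold and 7.66 to 20.8 CPM in warmth. Like BrGI, it had its highest group mean at V20 in LP08, at 270 ± 13.2 CPM, and at V40 in Chiifu, at 251 ± 7.61 CPM (SD, n = 3 each). Bra014320 had its highest means in the same groups, at 68.1 CPM and 75.1 CPM. Both genes were chosen by their r over these libraries, so this is no separate evidence. Bra014320 held 49.3 to 71.5 CPM in the cold and 14.03 to 18.5 CPM in warmth in LP08, and 58.2 to 77.9 CPM in the cold and 4.53 to 16.3 CPM in warmth in Chiifu. The opposite genes were lower in the cold. Bra040139 held 14.3 to 18.03 CPM in the cold and 21.4 to 35.7 CPM in warmth in LP08, and 13.4 to 17.02 CPM in the cold and 31.4 to 56.5 CPM in warmth in Chiifu.

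These genes set Chiifu NV replicate 3 apart from replicates 1 and 2 in the same sense as BrGI. In Chiifu NV replicates 1, 2 and 3 Bra036577 held 20.8, 16.5 and 7.66 CPM, and Bra014320 held 13.1, 14.1 and 4.53 CPM. Bra001637 held 296, 269 and 689 CPM in these libraries, and Bra040139 held 32.1, 31.4 and 56.5 CPM. Genes alike were thus lowest in replicate 3 and opposite genes highest. As these libraries were among the 30 used to choose the genes, this is no separate evidence.

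**Figure D5:**
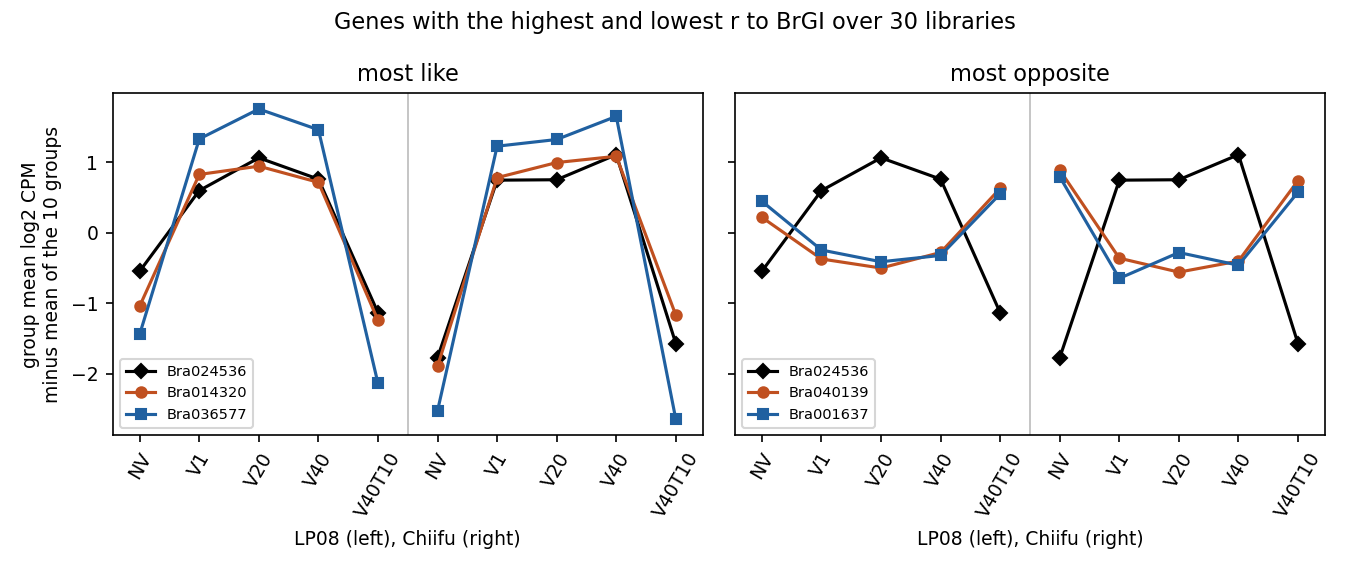
Group mean of log2 CPM minus the mean of the 10 groups (vertical axis) for BrGI (black) with the most alike genes (left) and the most opposite genes (right), over the treatments of LP08 and then Chiifu. The alike genes have an r of 0.965 over 30 libraries and follow BrGI, and the opposite genes, with an r of -0.968 and -0.955, vary less in size.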

How the data were processed

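For every library, the authors deposited raw counts of reads by gene, as whole numbers without normalization. Per the submitters' processing notes, FastQC, TopHat2, HTSeq and edgeR were used. The sources used here give no versions, genome build, annotation or strand setting, so reads of an antisense gene overlapping BrGI could not be told apart. The 5 summary rows stayed out of all totals. Reads on no gene were 6.91 to 11.6% and alignments at several places 2.67 to 7.29% of the alignments counted. No library pair of a group was a duplicate (chi-square of counts per degree of freedom 7.01 to 127).

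The test was the quasi-likelihood F test of edgeR 4.0.16 (R 4.3.3, TMM scaling, 1 mean per group over all 30 libraries, filterByExpr, which left 28712 genes). Benjamini-Hochberg adjustment ran over all genes within each of 26 comparisons and 1 joint test, and a gene was called below 0.05. Standard errors and 95% intervals came from the F statistic, and 2 was the prior count of log2 CPM. The model was tested on simulated data in which a gene had the same spread in every group. That does not cover a group as variable as Chiifu NV. Alternatives were RLE factors, total counts (added after seeing the data), no filter, DESeq2 1.42.0, limma 3.58.1 voom with group weights, the spread of the compared groups alone, a replicate block, adjustment over all comparisons together and leaving out each library of the compared groups.

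BrGI, the tests and the lists were chosen with earlier results of these data known. Besides BrGI, the text names the genes with the 2 highest and 2 lowest r to it. A list of clock and cold genes could not be described, as a table of RefSeq genes (CAAS_Brap_v3.01) matched 1 of the 42186 IDs, and not Bra024536. For the same reason no sequence is shown.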

Additional observations from a re-analysis of the deposited data

How the results depend on the processing

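The 6 cold comparisons with NV and both V40T10 against V40 comparisons kept their direction and their call under each of the 8 alternatives and without each library. The weakest adjusted p under the 8 alternatives was 0.038 for Chiifu V20 against NV, where only those groups set the spread. In the leave-one-out fits their log2 changes ranged over 0.99 to 1.25 (V1), 1.52 to 1.71 (V20) and 1.24 to 1.43 (V40) in LP08 and over 1.77 to 2.77, 1.78 to 2.79 and 2.11 to 3.14 in Chiifu.

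Where only the compared groups set the spread, V40T10 against NV in LP08 (-0.59), V20 against V1 in LP08 (0.46), LP08 against Chiifu at V40T10 (0.44) and the response difference for V40T10 against V40 (0.78) became called, and LP08 against Chiifu at NV (0.90) lost its call. With limma voom and group weights the first 4 were called too (-0.59, 0.46, 0.44 and 0.79), as were the response difference at V40 against NV (-1.56) and the joint test (F 5.04), and Chiifu V40T10 against NV changed sign to 0.18. The response difference at V40 was also called with DESeq2 (-1.23) and after adjustment over all comparisons (-1.24). With the replicate block it was called as well (-1.31, edgeR adjusted p 0.0457), and the block changed no other call. The numbers mark no stated pairing, and same-numbered libraries deviated together at -0.287 to 0.273 over 19 pairs of groups, none with all 3 correlations over 0.1. With total counts, an alternative chosen after seeing the data, Chiifu V40T10 against NV became 0.18, LP08 against Chiifu at V40T10 became -0.080 and at NV 0.78, no longer called. Relative to the median of all genes the first was -0.19, against -0.15 with TMM scaling, and the second 0.50 with either scaling. A change of scaling moves nearly all genes of a comparison by about the same amount, the median included. The value relative to the median is thus nearly fixed, and cannot show which scaling is right. With total counts the levels were 80.1 CPM in LP08 NV, 50.01 CPM in LP08 V40T10 and 52.9 CPM in Chiifu V40T10. RLE factors and no filter changed no call. The causes of the other changes were not tested.

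In the leave-one-out fits LP08 against Chiifu at NV ranged from 0.46 to 1.48, Chiifu V40T10 against NV from -0.58 to 0.45 and Chiifu V20 against V1 from -0.10 to 0.13. Response differences against NV ranged from -1.62 to -0.63 (V1), -1.18 to -0.16 (V20), -1.82 to -0.79 (V40) and -1.04 to 0.034 (V40T10), and the joint F from 2.07 to 6.75. Chiifu V20 against V1 was -0.02 without Chiifu V1 replicate 1 and -0.10 without Chiifu V20 replicate 2.

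The share of genes called depended on the spread used. With the compared groups alone it rose where BrGI became called. It was 23.3, 17.2, 18.1 and 14.8% for V1, V20, V40 and V40T10 against NV in Chiifu. It was 18.9% for LP08 against Chiifu at NV and 4.19% for V40 against V20 in Chiifu. For the response differences against NV it was 2.08, 2.89, 3.78 and 15.2%, in the same order.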
